A study of Homo sapiens with 12 samples.

Results

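Plasminogen activation and the start of blood clotting on the cell surface were followed through 8 genes in LM2 cells, which descend from the human breast carcinoma line MDA-MB-231 by selection for lung metastasis. The genes were chosen by name and not by a threshold on their values, but with earlier results of these data known. Their shares beside all tested genes therefore only describe them. Genes were matched by symbol, and each of the 8 had 1 row in the deposited table of 26006 rows. They were the plasminogen activator genes PLAU and PLAT, the receptor gene PLAUR, the serpin genes SERPINE2 and SERPINB2, the tissue factor gene F3, and the inhibitor genes TFPI and TFPI2. RNA had been sequenced from 4 groups of 3 libraries. These were LM2 cells transfected with a small interfering RNA (siRNA) against ZRANB1, LM2 cells transfected with a scramble siRNA, LM2 cells transduced with a short hairpin RNA (shRNA) against EZH2, and LM2 cells transduced with a scramble shRNA. All groups were the same line, and the labels gave no time after delivery, no number of hairpins or siRNAs and no separate cultures. The p-values therefore cover only the spread among these libraries, and that spread may be technical.

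Urokinase, encoded by PLAU, and tissue-type plasminogen activator, encoded by PLAT, cut plasminogen to plasmin, a protease that digests fibrin and matrix proteins. The urokinase receptor, encoded by PLAUR, holds urokinase at the cell surface. Protease nexin, encoded by SERPINE2, inhibits thrombin, urokinase and plasmin, and plasminogen activator inhibitor type 2, encoded by SERPINB2, inhibits urokinase and tissue-type activator and stays largely inside the cell. Tissue factor, encoded by F3, is the membrane receptor that starts clotting with factor VII. TFPI encodes its Kunitz-type inhibitor, and TFPI2 encodes a related Kunitz-type protein that inhibits plasmin and is deposited in the matrix. Breast cancer cells of the basal kind are known for high urokinase and tissue factor.

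The windows around the transcription starts of SERPINB2, PLAUR, F3 and TFPI2 are shown because these 4 genes were called in at least 1 comparison and their windows held an AP-1, TATA box or kappa B match. Windows were matched by symbol in RefSeq sequences of build GRCh38.p14 (the deposited values were made on hg19) and run from 250 bases before to 50 bases after the start, 5′ to 3′. In all, 7 of the 8 genes matched, with 9 windows; PLAT was not matched. Capitals mark a match to AP-1 (TGAGTCA), to the TATA box (TATAAA) or to the kappa B consensus on either strand. The windows of SERPINB2 (chr18:63887455-63887754, plus strand), PLAUR (chr19:43670120-43670419, minus strand), F3 (chr1:94541710-94542009, minus strand) and TFPI2 (chr7:93890704-93891003, minus strand) read as follows.
SERPINB2: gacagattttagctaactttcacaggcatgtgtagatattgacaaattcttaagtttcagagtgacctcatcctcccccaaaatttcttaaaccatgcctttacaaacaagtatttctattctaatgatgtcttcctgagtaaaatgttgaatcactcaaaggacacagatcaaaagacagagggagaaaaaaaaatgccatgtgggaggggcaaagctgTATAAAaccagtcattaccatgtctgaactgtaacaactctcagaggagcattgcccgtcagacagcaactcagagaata
PLAUR: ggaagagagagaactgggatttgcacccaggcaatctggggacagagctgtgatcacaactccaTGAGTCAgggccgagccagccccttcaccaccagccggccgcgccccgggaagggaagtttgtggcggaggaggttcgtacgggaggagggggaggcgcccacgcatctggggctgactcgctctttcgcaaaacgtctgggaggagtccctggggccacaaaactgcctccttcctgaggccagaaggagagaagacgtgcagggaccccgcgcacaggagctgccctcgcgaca
F3: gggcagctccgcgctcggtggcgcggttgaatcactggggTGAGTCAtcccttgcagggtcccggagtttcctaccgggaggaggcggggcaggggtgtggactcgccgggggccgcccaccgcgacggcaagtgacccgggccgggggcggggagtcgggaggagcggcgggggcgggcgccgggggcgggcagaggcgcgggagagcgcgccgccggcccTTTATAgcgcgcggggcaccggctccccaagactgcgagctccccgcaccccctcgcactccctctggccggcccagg
TFPI2: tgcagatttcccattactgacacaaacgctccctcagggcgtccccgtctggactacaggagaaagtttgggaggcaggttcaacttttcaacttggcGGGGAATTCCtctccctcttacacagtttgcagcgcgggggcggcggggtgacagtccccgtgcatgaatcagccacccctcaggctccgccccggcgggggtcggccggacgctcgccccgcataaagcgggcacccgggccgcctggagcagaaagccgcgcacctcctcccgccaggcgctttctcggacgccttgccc

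These windows differed in base composition and in the motifs they held. The SERPINB2 window had 1 CpG and 39.0% G and C, against a median of 14 CpG and 58.7% over 35116 RefSeq windows of the same length, and its TATA box match began 30 bases before the start. The F3 window had 38 CpG and 77.3% G and C, with an AP-1 match beginning 210 bases and a TATA box match on the other strand beginning 28 bases before the start. PLAUR had an AP-1 match beginning 186 bases before the start, and TFPI2 had a kappa B match beginning 152 bases before it. Of all windows, 4.95% held the AP-1 letters, 11.5% the TATA box and 5.91% the kappa B consensus. GC box letters (GGGCGG), present in 45.0% of all windows, were found for PLAU, SERPINE2, F3 and TFPI2, and E-box letters (CACGTG), present in 7.26%, for SERPINE2. The letters of the CRE (TGACGTCA), present in 1.85%, were in 0 of the 9 windows. No matches overlapped in these windows, and a match describes letters only.

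**Figure D1:**
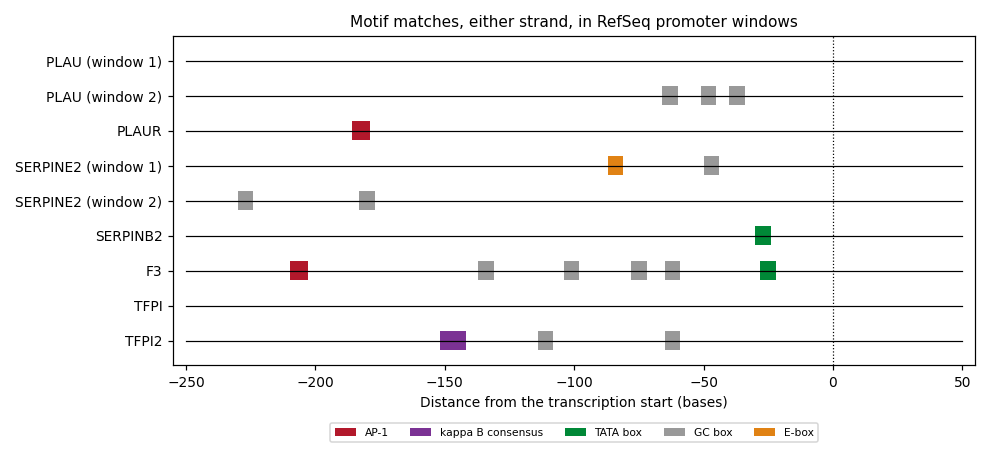
Motif matches on either strand in the 9 RefSeq windows of 7 genes, plotted by distance from the transcription start in bases; each line is 1 window and each block 1 match. AP-1 blocks stand in the PLAUR and F3 windows, TATA box blocks in those of SERPINB2 and F3, and the kappa B block in that of TFPI2.

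Levels were given as FPKM, in which fragments are divided by transcript length and library size, so they may be compared between genes. Within each group, the 3 values of a row were sorted as text. Values are therefore given from low to high, and none can be traced to its library. The table held no counts, so the depth behind each value is unknown. EZH2 was at 16.5 ± 0.681 FPKM with the EZH2 shRNA and 35.4 ± 1.07 FPKM with the scramble shRNA (SD, n = 3 each), and limma called it lower. In the libraries labelled ZRANB1 siRNA, ZRANB1 averaged 10.0 ± 1.31 FPKM, and with the scramble siRNA 11.4 ± 0.795 FPKM, a difference that limma did not call (adjusted p = 0.349), so directions drawn from that group are those of libraries so labelled. EZH2 itself was called lower in them, with a mean of 30.4 ± 2.08 FPKM, against one of 48.6 ± 2.097 FPKM for the scramble siRNA. All 5 listed markers of the MDA-MB-231 line reached 1 FPKM in each group, with the mesenchymal marker VIM at 2573 to 2836 FPKM as group means. Between the scramble controls, 3 of these 5 were called higher with the siRNA and 1 lower. EGFR averaged 29.3 FPKM with the scramble siRNA and 19.7 FPKM with the scramble shRNA, and CD44 118 and 264 FPKM. Of 9 luminal markers ESR1, PGR and CDH1 stood at 0.0450 FPKM or less. The other 6 luminal markers were expressed, KRT18 at 247 to 353 FPKM and KRT8 at 184 to 267 FPKM as group means. All 6 were called between the scramble controls, 5 of them higher for the siRNA control and 1 lower. Of all tested genes, 25.5% were called higher in that comparison, 25.1% lower and 50.6% either way. The 9 luminal markers summed to 594 FPKM with the ZRANB1 siRNA, 699.7 FPKM with the scramble siRNA, 459 FPKM with the EZH2 shRNA and 489.9 FPKM with the scramble shRNA. Endothelial and platelet markers, whose cells use PLAT or TFPI, summed to at most 3.23 and 1.29 FPKM over 7 and 5 genes in a group. In RNA from whole cultures, fewer cells of a kind and less RNA per cell cannot be told apart.

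With the EZH2 shRNA, SERPINB2, F3 and PLAT rose, and none of the 8 genes was called lower. That was 3 of 8, or 37.5%, beside 3.39% of the 11929 tested genes called higher in this comparison, 3.03% called lower and 6.41% called either way. The question was which transcripts differ when EZH2, the histone H3 methyltransferase of Polycomb repressive complex 2, is depleted. Calls needed an adjusted p below 0.05 by limma on log2(FPKM + 1), a scale on which the change of a low gene is understated. The median log2 fold change was 0.20 over the 8 genes and -0.014 over all tested genes.

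SERPINB2 moved most in this comparison. Its values were 35.5, 44.2 and 46.3 FPKM with the EZH2 shRNA, against 19.8, 20.0 and 22.9 FPKM with the scramble shRNA. All 3 values of the EZH2 shRNA group stood above those of its control. The group means were 42.0 ± 5.73 and 20.9 ± 1.77 FPKM (SD, n = 3 each), a ratio of 2.01. On the log2 scale this was 0.97 ± 0.12 (SE), with an adjusted p of 0.00107 by limma. The other 2 genes that rose did so by less.

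F3, which encodes tissue factor, was next. Its values were 120.3, 123.1 and 133.8 FPKM with the EZH2 shRNA and 77.4, 82.0 and 84.7 FPKM with the scramble shRNA, again with no overlap. The mean was 1.55 times that of the control, with a log2 fold change of 0.62 ± 0.078 (SE) and an adjusted p of 9.69e-04 by limma.

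Of the activator genes, PLAT rose and PLAU did not pass the test. PLAT had 19.4, 20.5 and 20.7 FPKM with the EZH2 shRNA, against 14.0, 15.1 and 15.9 FPKM with the scramble shRNA, so the groups did not overlap. Its log2 fold change was 0.41 ± 0.067 (SE), with an adjusted p of 0.005 by limma; from the 6 values of these groups alone the adjusted p was 0.0709. PLAU had 316.4, 321.7 and 328.8 FPKM with the EZH2 shRNA and 323.8, 331.0 and 346.7 FPKM with the scramble shRNA. These ranges overlapped, and the log2 difference of -0.050 had a 95% interval of -0.17 to 0.069.

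The receptor and the remaining inhibitors were not called. PLAUR had 113.2, 129.6 and 137.9 FPKM with the EZH2 shRNA and 133.7, 145.3 and 157.5 FPKM with the scramble shRNA, with an adjusted p of 0.267 by limma. SERPINE2 had 52.0, 54.5 and 57.4 FPKM with the EZH2 shRNA and 48.1, 50.3 and 55.1 FPKM with the scramble shRNA, with an adjusted p of 0.464. Both genes overlapped between the groups, with 95% intervals of -0.41 to 0.014 for PLAUR and -0.053 to 0.24 for SERPINE2. TFPI had 31.7, 33.1 and 39.9 FPKM with the EZH2 shRNA and 23.4, 27.6 and 33.4 FPKM with the scramble shRNA (adjusted p = 0.326 by limma). TFPI2 spread widely, with 40.7, 57.0 and 77.3 FPKM with the EZH2 shRNA and 49.8, 63.8 and 64.0 FPKM with the scramble shRNA. Its 95% interval, -0.51 to 0.39 on the log2 scale, was the widest of the 8 genes.

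**Figure D2:**
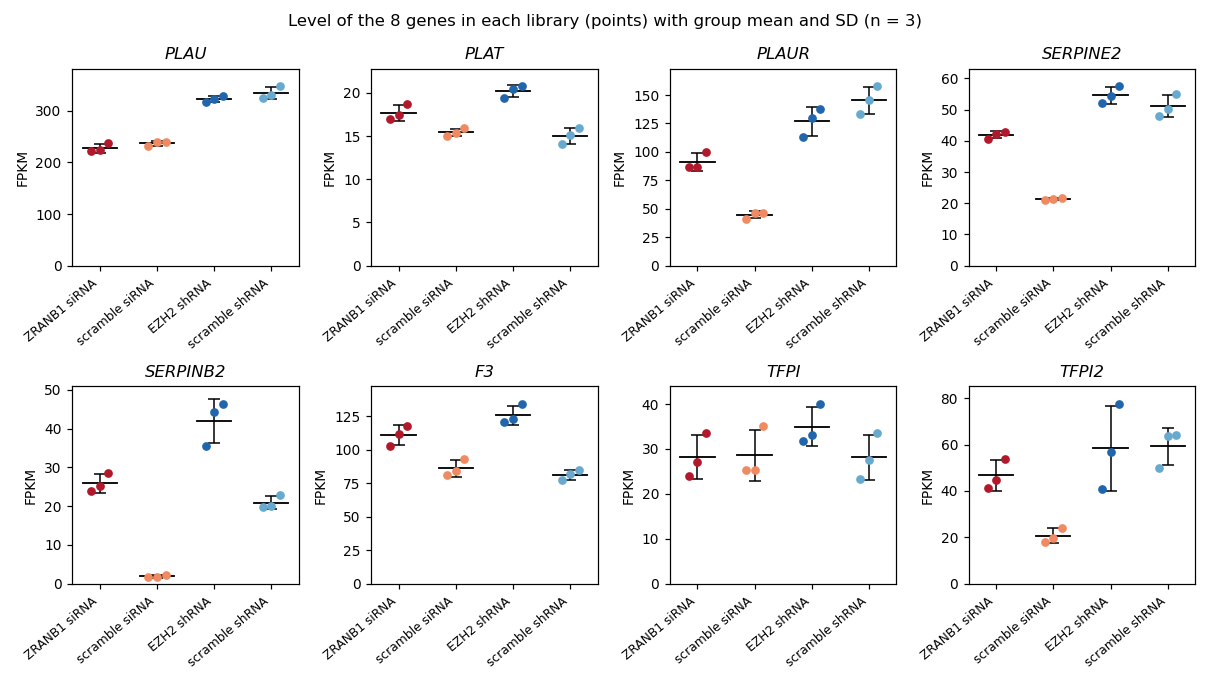
FPKM of each of the 8 genes in the 12 libraries; points are libraries, horizontal lines group means and bars the SD (n = 3), with a linear axis from 0 in each panel. SERPINB2 stands at 19.8 FPKM or more in 3 groups, and at most at 2.35 FPKM with the scramble siRNA, while F3 and PLAT are level between both scramble controls and PLAU is lower in both siRNA groups.

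In the libraries labelled ZRANB1 siRNA, the receptor gene and 3 of the 4 inhibitor genes rose, with F3 beside them, and neither activator gene passed the test. The 5 genes called higher were SERPINB2, TFPI2, PLAUR, SERPINE2 and F3, or 62.5% of the 8, beside 10.1% of all tested genes called higher; 0 were called lower, beside 6.5%, and 16.6% of all tested genes were called either way. The median log2 fold change was 0.65 over the 8 genes and -0.017 over all tested genes. The question here was which transcripts differ when the deubiquitinase ZRANB1 is targeted.

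SERPINB2 had by far the largest change. Its values were 23.9, 25.2 and 28.6 FPKM with the ZRANB1 siRNA, against 1.61, 1.73 and 2.35 FPKM with the scramble siRNA. The lowest value of the first group was thus far above the highest of the second. The means were 25.9 ± 2.48 and 1.89 ± 0.397 FPKM (SD, n = 3 each), a ratio of 13.7, and the log2 fold change was 3.22 ± 0.12 (SE), with an adjusted p of 1.35e-08 by limma. With a pseudocount of 0.1 FPKM in place of 1, which bears on low genes, the log2 fold change was 3.72.

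PLAUR, SERPINE2 and TFPI2 moved by similar amounts. PLAUR had 86.4, 86.7 and 100.1 FPKM with the ZRANB1 siRNA, against 41.4, 46.5 and 46.7 FPKM with the scramble siRNA. SERPINE2 had 40.7, 42.2 and 42.9 FPKM with the ZRANB1 siRNA, against 21.1, 21.3 and 21.8 FPKM with the scramble siRNA. TFPI2 had 41.2, 44.9 and 54.0 FPKM with the ZRANB1 siRNA, against 18.1, 19.7 and 24.2 FPKM with the scramble siRNA. For each of these genes all 3 values lay above all 3 of the control. The log2 fold changes by limma were 1.00 ± 0.096 (SE) for PLAUR, 0.94 ± 0.067 for SERPINE2 and 1.14 ± 0.20 for TFPI2, with adjusted p of 3e-05, 2.55e-06 and 0.00284.

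F3 rose less than these. Its values were 102.8, 111.7 and 117.9 FPKM with the ZRANB1 siRNA and 81.3, 84.1 and 93.2 FPKM with the scramble siRNA, without overlap. The log2 fold change was 0.36 ± 0.078 (SE), with an adjusted p of 0.00855 by limma. PLAT had 17.0, 17.4 and 18.7 FPKM with the ZRANB1 siRNA and 15.1, 15.4 and 15.9 FPKM with the scramble siRNA. These ranges did not overlap either, but the log2 difference of 0.18 did not pass the test (adjusted p = 0.0862 by limma). In all, 6 of the 8 genes had 3 values above the range of the control, beside 18.5% of all tested genes; 0 had 3 values below it, beside 18%, and 36.4% of all tested genes lay outside it on either side.

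PLAU and TFPI overlapped between these groups. PLAU had 221.3, 223.2 and 237.7 FPKM with the ZRANB1 siRNA and 231.0, 238.8 and 240.1 FPKM with the scramble siRNA. Its log2 difference was -0.058 (95% interval -0.18 to 0.061), with an adjusted p of 0.534 by limma. TFPI had 24.0, 27.2 and 33.5 FPKM with the ZRANB1 siRNA and 25.2, 25.4 and 35.1 FPKM with the scramble siRNA. Its log2 difference was -0.013 with a wider interval, -0.38 to 0.36. With 3 values against 3, an exact two-sided permutation test cannot go below p = 0.1; it gave 0.1 for each gene whose groups did not overlap, in both comparisons.

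**Figure D3:**
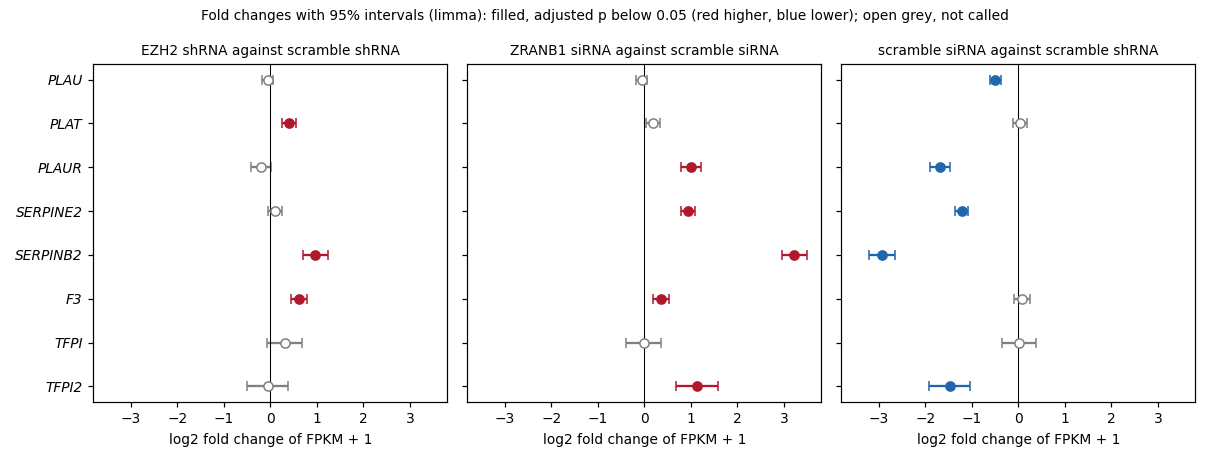
Log2 fold change of FPKM + 1 for the 8 genes in 3 comparisons, with 95% intervals from limma; filled points were called (red higher, blue lower) and open grey points were not. SERPINB2 lies at 0.97 with the EZH2 shRNA, 3.22 with the ZRANB1 siRNA and -2.93 between the scramble controls.

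The scramble controls were themselves compared, since the change with the ZRANB1 siRNA is read from one of them. This comparison shares its control groups with both comparisons above, so only the genes' own values are set side by side. With the scramble siRNA, 5 of the 8 genes were lower than with the scramble shRNA and 0 were higher. They were SERPINB2, PLAUR, TFPI2, SERPINE2 and PLAU, or 62.5%, beside 25.1% of all tested genes called lower, 25.5% called higher and 50.6% called either way. None of the 5 overlapped between the controls, beside 29.2% of all tested genes with the siRNA values below the shRNA range and 59.9% outside it on either side.

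The fall was largest for SERPINB2, to 1.89 FPKM with the scramble siRNA against 20.9 FPKM with the scramble shRNA, a log2 fold change of -2.93 ± 0.12 (SE) and an adjusted p of 8.56e-09 by limma. PLAUR averaged 44.9 ± 3.02 FPKM for the scramble siRNA and 145 ± 11.9 FPKM for the scramble shRNA, or 30.8% of the level in the shRNA control. TFPI2 averaged 20.6 ± 3.16 FPKM for the scramble siRNA and 59.2 ± 8.16 FPKM for the scramble shRNA. SERPINE2 averaged 21.4 ± 0.383 FPKM for the scramble siRNA and 51.2 ± 3.59 FPKM for the scramble shRNA (SD, n = 3 each). For these 4 genes the control with the lower level was the one that the ZRANB1 siRNA was set against. PLAU also fell, to 70.9% of the level in the shRNA control, a log2 fold change of -0.49 ± 0.054 (SE). F3, PLAT and TFPI were not called, with log2 differences of 0.081, 0.038 and 0.019 and 95% intervals of -0.090 to 0.25, -0.11 to 0.18 and -0.35 to 0.39.

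The order of the 4 groups differed from gene to gene. SERPINB2 ran from EZH2 shRNA over ZRANB1 siRNA and scramble shRNA to scramble siRNA, with no overlap between neighbours. F3 and PLAT had EZH2 shRNA first and ZRANB1 siRNA next, without overlap, then both scramble controls, which overlapped. PLAUR and TFPI2 had the scramble shRNA first, overlapping with the EZH2 shRNA, and SERPINE2 had these 2 groups in the other order, again overlapping. In all 3 of these genes the ZRANB1 siRNA came next to last and the scramble siRNA last; only for TFPI2 did the ZRANB1 siRNA overlap with the group above it. PLAU had both shRNA groups above both siRNA groups, with overlap within each pair. Whether the kind of delivery made this split was not tested. TFPI overlapped between all neighbours.

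The change with the ZRANB1 siRNA exceeded that with the EZH2 shRNA for 4 of the 8 genes, by limma's test of the difference between both effects. They were SERPINB2, PLAUR, TFPI2 and SERPINE2, beside 6.91% of all tested genes with a difference in this direction; 0 of the 8 genes differed the other way, beside 3.58%. The difference on the log2 scale was 2.25 ± 0.18 (SE) for SERPINB2, 1.201 ± 0.14 for PLAUR, 1.199 ± 0.29 for TFPI2 and 0.84 ± 0.095 for SERPINE2. For TFPI2 the adjusted p was 0.0213, and without 1 value of a group it ran up to 0.0548. F3 and PLAT had differences of -0.26 and -0.22, with adjusted p of 0.17 and 0.18, so a larger change with the EZH2 shRNA was not shown.

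Ratios of levels per length show how some transcripts of the system stood to each other in each group. Protein and activity were not measured. PLAU was the most abundant of the 8 genes in every group, above 97.4% to 98.3% of tested genes, and PLAT was far lower. The ratio of PLAU to PLAUR was 2.50 with the ZRANB1 siRNA and 5.27 with the scramble siRNA. It was 2.54 with the EZH2 shRNA and 2.29 with the scramble shRNA. The scramble siRNA group thus had the least receptor transcript per urokinase transcript. The ratio of F3 to its inhibitor gene TFPI was 3.92 with the ZRANB1 siRNA and 3.02 with the scramble siRNA. It was 3.60 with the EZH2 shRNA and 2.89 with the scramble shRNA. For F3 to TFPI, the widest and narrowest ratios that the single values allow overlapped in both comparisons, since TFPI varied within groups. The ratio of F3 to TFPI2 went the other way with the ZRANB1 siRNA, at 2.37 against 4.18 with the scramble siRNA. The extremes, 1.90 to 2.86 and 3.36 to 5.16, did not overlap. It was 2.16 with the EZH2 shRNA and 1.38 with the scramble shRNA, with overlapping extremes.

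Other genes of the plasminogen system were read from a list of 35, of which 19 reached a mean of 1 FPKM and were tested. The list also held PLAA, which is not a gene of this system. PLAA is among the 19 and was not called in any comparison. With the EZH2 shRNA, 1 of them rose and 2 fell, while 16 were not called, beside 6.41% of all tested genes called in either direction. The hepatocyte growth factor activator inhibitor gene SPINT1 rose, at 2.49 ± 0.448 FPKM with the EZH2 shRNA and 1.24 ± 0.208 FPKM with the scramble shRNA (SD, n = 3 each). CTSB, which encodes the lysosomal protease cathepsin B, fell to 93.9 ± 5.40 FPKM with the EZH2 shRNA, against 122 ± 5.64 FPKM with the scramble shRNA. SPINT2, a relative of SPINT1, fell to 149 FPKM with the EZH2 shRNA, against 188 FPKM with the scramble shRNA. From the 6 values of both groups alone, none of the 3 was called. CTSB kept its call in the other 12 settings tried, whereas SPINT2, with an adjusted p of 0.0487 by limma, lost it in 11 of 13, among them each one that left out a value. SPINT1 lost its call in 5 of 12.

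With the ZRANB1 siRNA, 7 of the 19 rose and none fell, or 36.8%, beside 10.1% of all tested genes called higher. THBS1, which encodes the matrix protein thrombospondin, was at 93.4 ± 0.250 FPKM with the ZRANB1 siRNA and 42.8 ± 1.58 FPKM with the scramble siRNA. LRP1, the endocytic receptor that clears complexes of urokinase and its inhibitors, was at 12.5 ± 1.12 FPKM with the ZRANB1 siRNA and 4.35 ± 0.487 FPKM with the scramble siRNA. CTSB rose as well, to 84.0 ± 2.56 FPKM with the ZRANB1 siRNA, against 52.7 ± 0.763 FPKM with the scramble siRNA. The plasminogen receptor genes S100A10 and ANXA2 were abundant and not called, at 379 and 825 FPKM with the ZRANB1 siRNA and 352 and 882 FPKM with the scramble siRNA. PLG, the plasminogen gene itself, had a mean of 0.232 FPKM or less in each group. Between the scramble controls 4 of the 19 were higher and 11 lower with the siRNA, or 21.1% and 57.9%, beside 25.5% and 25.1% of all tested genes, THBS1, LRP1 and CTSB among the lower.

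Of 32 further genes of the clotting cascade and its receptors, 13 were tested. The genes of the plasma factors that follow tissue factor, F7 and F10, had means of 0.216 FPKM or less in each group. With the EZH2 shRNA 0 of the 13 rose and 1 fell, beside 3.39% of all tested genes called higher and 3.03% lower. The 1 was ANXA5, which encodes a lipid-binding anticoagulant protein, at 410 ± 47.0 FPKM with the EZH2 shRNA and 515 ± 32.8 FPKM with the scramble shRNA; without any 1 value of the control this call was lost. F2R and F2RL1, which encode protease-activated receptors for thrombin and for trypsin-like proteases, had 22.001 ± 3.997 and 139 ± 22.1 FPKM with the EZH2 shRNA, against 16.3 ± 1.42 and 108 ± 8.01 FPKM with the scramble shRNA. Neither was called (adjusted p = 0.0924 and 0.0879 by limma). With the ZRANB1 siRNA 2 of the 13 rose, or 15.4%, F8 and MCFD2, and 0 fell, which is near the 10.1% of all tested genes called higher; without 1 value of the ZRANB1 siRNA group neither call held. The anticoagulant receptor genes PROCR and THBD were not called with the ZRANB1 siRNA, at 22.7 and 20.5 FPKM against 25.1 and 19.8 FPKM with the scramble siRNA, and both were higher with the scramble siRNA than in the shRNA control.

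Among the other serpins, 8 of 33 genes were tested. With the ZRANB1 siRNA 4 rose and none fell, beside 10.1% of all tested genes called higher and 6.5% lower. SERPINA1, the antitrypsin gene, was at 3.50 ± 0.257 FPKM with the ZRANB1 siRNA and 0.298 ± 0.0412 FPKM with the scramble siRNA, and SERPINB8 rose to 9.05 ± 0.473 FPKM with the ZRANB1 siRNA, against 5.77 ± 0.865 FPKM with the scramble siRNA. With the EZH2 shRNA 0 rose and 2 fell, beside 3.39% of all tested genes called higher and 3.03% lower. These were SERPINH1, a collagen chaperone gene, at 117 ± 9.82 FPKM with the EZH2 shRNA and 177 ± 19.4 FPKM with the scramble shRNA, and SERPINA1, at 8.84 ± 0.793 FPKM with the EZH2 shRNA and 11.8 ± 0.256 FPKM with the scramble shRNA. Each call was lost in 2 of the 3 ways of leaving out 1 value of the scramble shRNA group. SERPINH1 kept its call in the other 11 of 13 settings. SERPINA1 lost its call in 6 of 13, among them the 6 values alone, the pseudocount of 0.1 FPKM and the filter at 5 FPKM. Between the controls, 6 of the 8 were lower with the scramble siRNA, beside 25.1% of all tested genes.

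Among genes other than TFPI and TFPI2 with a Kunitz domain, 6 of 12 were tested. With the EZH2 shRNA SPINT1 rose and SPINT2 and APLP2 fell, or 1 and 2 of the 6, beside 3.39% and 3.03% of all tested genes. The call of APLP2 was lost from the 6 values alone (adjusted p = 0.0901 by limma), and that of SPINT2 in 11 of 13 settings, as above. With the ZRANB1 siRNA 3 of the 6 rose, beside 10.1% of all tested genes, the collagen genes COL7A1 and COL6A3 and the amyloid precursor relative APLP2. COL7A1 was at 92.5 ± 17.5 FPKM with the ZRANB1 siRNA and 3.34 ± 0.553 FPKM with the scramble siRNA. The scramble siRNA itself stood at 1.16% of the COL7A1 level with the scramble shRNA, which was 289 ± 40.7 FPKM. COL6A3 and APLP2 were lower in that control too, at 41.9% and 52.9% of their levels with the scramble shRNA.

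**Figure D4:**
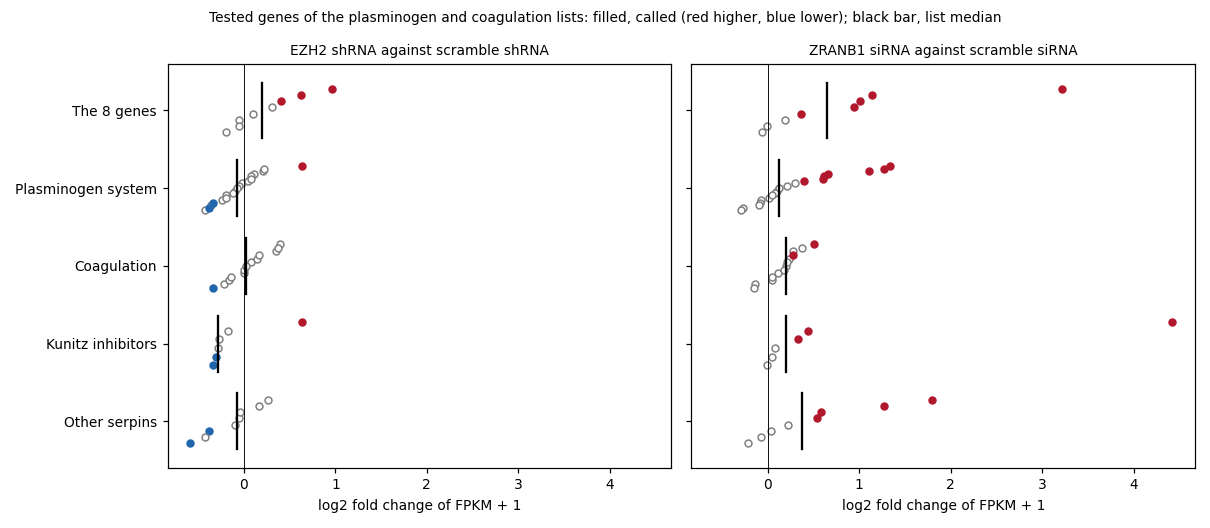
Log2 fold change of FPKM + 1 for the 8 genes and for the tested genes of 4 lists, with the EZH2 shRNA against its control (left) and the ZRANB1 siRNA against its control (right), on a shared axis; filled points were called, open points were not, and black bars are list medians. The median of the 8 genes is 0.20 on the left and 0.65 on the right.

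Markers of other cells were set beside these results. Fibroblast markers summed to 17.3 FPKM with the ZRANB1 siRNA and 8.15 FPKM with the scramble siRNA, and to 19.9 FPKM with the EZH2 shRNA and 24.95 FPKM with the scramble shRNA. Of the 6 only COL1A1 reached 1 FPKM, at 17.0 FPKM with the ZRANB1 siRNA and 8.14 FPKM with the scramble siRNA, and limma called it higher. Monocyte markers summed to 43.3 FPKM with the ZRANB1 siRNA and 41.1 FPKM with the scramble siRNA, nearly all of it CD68. CD14, at 0.867 FPKM with the ZRANB1 siRNA and 0.243 FPKM with the scramble siRNA, was called higher too. Its level was above both of these in the shRNA groups, at 2.87 FPKM with the EZH2 shRNA and 3.90 FPKM with the scramble shRNA. Endothelial markers summed to 2.35 FPKM with the ZRANB1 siRNA and 1.16 FPKM with the scramble siRNA. These sums did not overlap between the lowest values of the ZRANB1 siRNA group (1.85 FPKM) and the highest of its control (1.77 FPKM). Endothelial sums were 3.23 FPKM with the EZH2 shRNA and 2.91 FPKM with the scramble shRNA. Apart from CD68, the other fibroblast, monocyte and endothelial markers had too low a mean to be tested. The part of these markers in the results was not tested.

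The genes nearest to each member were taken by the distance between group means of log2(FPKM + 1), centred per gene, over the 4 groups; with 4 points this describes a shape and no more. For SERPINB2 they were ICAM1 and CXCL3, at 0.51 and 0.52, beside a median distance of 3.001 to 11555 genes. For PLAUR they were FBXO32 and TNIP1, at 0.096 and 0.10, and for SERPINE2 HS3ST1 and TGFBR2, at 0.068 and 0.076. For TFPI2 they were SCG5 and LACC1, at 0.077 and 0.11, and for F3 CPEB4 and EPAS1, at 0.030 and 0.043. PLAT lay nearest to TTC3 and PCYT1A, at 0.024 and 0.034, and TFPI to GREB1L and BRAF, at 0.031 and 0.034. ZNF432 was close to PLAU, at 0.050. Among the 8 genes themselves, PLAT and TFPI (0.17), SERPINE2 and TFPI2 (0.20) and PLAT and F3 (0.20) were the nearest pairs. Genes that change little lie near many others by this distance. The median distance to all genes was 0.42 for TFPI, 0.47 for PLAT and 0.62 for F3, and 1.07 for SERPINE2 and 1.22 for TFPI2.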

How the data were processed

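The deposited table held FPKM values of 12 libraries, made by the authors; the submitters' processing notes name hg19, Cuffdiff 2.2.1, Cufflinks 2.2.1, SAMtools and TopHat2 2.1.1. Not given in the sources used here were options, annotation, strand and scaling. All rows with 3 different values in a group were in text order (15850 for the ZRANB1 siRNA, 15454 for the scramble siRNA, 15751 for the EZH2 shRNA and 15773 for the scramble shRNA), so no column named a library. For 440 symbols with several rows, only the row of highest mean was used. Genes whose mean reached 1 FPKM (11929) were tested as log2(FPKM + 1) with limma 3.58.1 in R 4.3.3, with all 4 groups in 1 fit (8 residual degrees of freedom), a trend of variance on intensity, and p adjusted over all of them by Benjamini-Hochberg. The fit was also run on simulated data with independent normal spread in each value, which cannot speak to the spread between separate cultures. Precision is limited by 3 values per group. Named genes were the 8 members, EZH2, ZRANB1, PLG, S100A10, ANXA2, F2R, F2RL1, PROCR, THBD, F7 and F10, the 3 called genes per list, direction and comparison with the lowest adjusted p, and the 2 nearest genes of each member; results of some genes that the rule takes are not reported here. Members, lists and motifs were chosen with earlier results of these data known. Alternatives were another pseudocount (0.1), no filter, a filter at 5 FPKM, the 6 compared values alone, no trend, 1 scaling factor per group, summed rows of a symbol, and leaving out each value after a random order. Promoter windows came from RefSeq (GRCh38.p14). Figures used matplotlib 3.10.9.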

Additional observations from a re-analysis of the deposited data

Results flagged for a closer look

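The effect of the ZRANB1 siRNA differed from that of the EZH2 shRNA, by limma's test of the difference, for 4 genes. SERPINB2 differed by 2.25 on the log2 scale, with 3.22 for the ZRANB1 siRNA and 0.97 for the EZH2 shRNA. PLAUR differed by 1.201, with 1.00 for the ZRANB1 siRNA and -0.20 for the EZH2 shRNA. TFPI2 differed by 1.199, with 1.14 for the ZRANB1 siRNA and -0.058 for the EZH2 shRNA. SERPINE2 differed by 0.84, with 0.94 for the ZRANB1 siRNA and 0.094 for the EZH2 shRNA. All 4 were also lower with the scramble siRNA than in the other control, with log2 fold changes of -2.93 for SERPINB2, -1.67 for PLAUR, -1.48 for TFPI2 and -1.22 for SERPINE2. The part of the control in these differences was not tested.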

How the results depend on the processing

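No paired analysis was possible because values were sorted as text within each row and group, so the replicate number in a column's name did not follow 1 library. Of 456 values of the 8 genes under the alternatives, 436 kept their direction and side of the threshold, 6 lost the call and 14 changed sign, none of these a called value. The calls lost were those of PLAT with the EZH2 shRNA, from the 6 values alone, and of the TFPI2 difference of effects, in 5 settings that leave out 1 value. The numbers of members called were within 1.5 times the reported ones throughout. For TFPI with the ZRANB1 siRNA the log2 difference was 0.0053 with 1 scaling factor per group and ran from -0.14 to 0.14 without 1 value. Without 1 value it ran from -0.28 to 0.17 for TFPI2 with the EZH2 shRNA, from -0.040 to 0.014 for the PLAU difference of effects, and, between the scramble controls, from -0.0067 to 0.077 for PLAT and from -0.13 to 0.15 for TFPI. Over all genes, the EZH2 shRNA comparison had 404 higher and 361 lower; it had 260 higher with the filter at 5 FPKM, 124 higher and 98 lower from the 6 values alone, and 217 to 303 higher and 188 to 268 lower without 1 value. In the ZRANB1 siRNA comparison 775 were lower, and 457 to 495 without 1 value. The difference of effects had 427 lower, and 268 with the filter at 5 FPKM. With 3 values per group and unknown depth, small differences of TFPI and TFPI2 were not detectable.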

Other observations

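The place of a gene among the 11929 tested genes, ranked by group mean, gives the size of these levels. SERPINB2 stood above 69.8% of them with the ZRANB1 siRNA and above 9.41% with the scramble siRNA, and above 81.7% with the EZH2 shRNA and 64.1% with the scramble shRNA. PLAUR stood above 91.9% with the ZRANB1 siRNA and 82.1% with the scramble siRNA, whereas F3 stood above 90.8% or more in each group.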
